A study of Mus musculus with 16 samples.

Results

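Mammary tumours of mice given sonidegib together with an antibody against PD-L1, called the combination here, were compared with tumours of mice given vehicle, to ask what both drugs changed in the tumour RNA. The comparison rests on 8 of the 16 libraries of the series, 4 from combination tumours and 4 from vehicle tumours, chosen by their treatment labels. The other 8 libraries, 4 with sonidegib alone and 4 with anti-PD-L1 alone, shared the estimate of the spread, and their levels are quoted beside some genes. Every tumour carried the MMTV-PyMT transgene, in which a promoter of the mouse mammary tumour virus drives the polyoma middle T antigen, mainly in mammary epithelium. Tumours were taken from transgenic donors 12 weeks of age and grown in fat pad number 4 of FVB recipients, a strain with an intact immune system. Combination recipients were given anti-PD-L1 (5 mg/kg, 2 doses a week) and sonidegib (20 mg/kg, daily), and vehicle recipients neither drug, all for 28 days. The labels name no donor, litter, recipient age, composition of the vehicle or library batch, so p-values reflect only the spread among the tumours at hand, which may in part be technical. The labels number the libraries through the groups in turn, so library order cannot be told apart from treatment. Of 55146 genes in the table, 15105 reached 1 FPKM in at least 4 of the 16 libraries and were tested. A gene under 1 FPKM in all vehicle tumours can pass this filter through the groups where it is high, which favours counts of rises. FPKM relates the fragments of a gene to its transcript length and to all fragments mapped in the library, and all log2 changes are combination minus vehicle on the scale log2(FPKM + 1), where changes of genes near 1 FPKM come out too small.

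PD-L1, on tumour and myeloid cells, binds PD-1 on T cells and restrains them, and an antibody against PD-L1 blocks that contact. Sonidegib inhibits Smoothened, the membrane protein that passes the Hedgehog signal on to the Gli transcription factors. Activated T cells and NK cells release interferon gamma, which acts on promoters of antigen presentation genes, of chemokines such as Cxcl9, and of GTPases that guard cells against intracellular pathogens. Glucose uptake and glycolysis genes are, among other inputs, targets of hypoxia-inducible factors, which accumulate when oxygen is short.

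Combination replicate 1 stood apart from the other combination libraries. Its Spearman correlation over the genes tested was 0.871 to 0.890 with combination replicates 2 to 4 but 0.912 to 0.955 with the 4 vehicle libraries, while replicates 2 to 4 correlated at 0.937 to 0.955 with each other. Vehicle replicate 4 correlated at 0.869 to 0.901 with the other vehicle libraries and at 0.883 to 0.945 with the 4 combination libraries. Vehicle replicate 3 had 11361 genes at 1 FPKM or more, against 13107 to 13970 in the other vehicle libraries, and a median log2 deviation of -0.764. Epcam, the adhesion protein of epithelial cells, was abundant in all 8 libraries, at 265 to 307 FPKM in combination and 83.8 to 423 FPKM in vehicle tumours. The slope of the log2 values on GC content averaged -1.95 ± 2.75 in combination and 2.76 ± 2.24 in vehicle libraries (SD, n = 4 each; exact two-sided permutation p = 0.0571, smallest possible 0.0286). By library the slope was 2.13, -3.24, -2.81 and -3.87 in combination replicates 1 to 4. In vehicle replicates 1 to 4 it was 4.55, 3.32, 3.69 and -0.513. Why combination replicate 1 and vehicle replicate 4 lay nearer the other group in this slope was not tested. For some genes and lists, results are also given without combination replicate 1. The labels describe the RNA in conflicting ways, since the protocol has libraries depleted of ribosomal RNA and another label gives polyadenylated RNA.

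Of the 15105 genes, 1703 were called between combination and vehicle at an adjusted p under 0.05 (limma, Benjamini-Hochberg over all genes tested), which is 11.3%. Of these, 1559 (10.3% of the genes tested) were higher and 144 (0.953%) were lower in the combination. The spread behind these calls was shared by all 16 libraries, those of the single drugs included. With the 8 compared libraries alone 25 genes were called, 24 higher and 1 lower. In 471 genes (3.12%) every combination library exceeded every vehicle library, and in 192 (1.27%) every combination library lay below. The median log2 change over all genes was 0.26, and 0.0124 after median-of-ratios scaling, which called 1471 genes higher and 1129 lower, so changes are read against that shift of the median gene. Vehicle replicate 4 was the highest vehicle library for 1267 of the 1559 genes called higher (81.3%). Combination replicate 1 was the lowest combination library for 1308 of the 1559 genes called higher (83.9%), and it lay within the range of the vehicle libraries for 1170 of them (75%). Among the 144 genes called lower it was the highest combination library for 136 and lay within the vehicle range for 70. Without it 4229 genes were called (28%), 3550 higher (23.5%) and 679 lower (4.5%), and 1698 of the 1703 stayed called. With trends of GC content and transcript length removed from each library, 333 of 14893 genes were called (2.24%), of which 291 were among the 1703.

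The number of calls also moved when other libraries were left out, as the plot of calls by setting shows. It was 9, 511 and 3 without combination replicates 2, 3 and 4, and 10, 6, 3 and 4947 without vehicle replicates 1, 2, 3 and 4. Of the 1703 genes, 5 were called in at least 6 of these 8 fits (0.0331% of the genes tested) and 2 in all 8 (0.0132%). Those 2 were Ccl8 and Ly6c1, and S100a4, Wfdc17 and Ifi205 completed the 5. Gm16567 was called in 5 fits and 8 genes in 4. Every other gene named here as changed lost its call in at least 5 of the 8 fits.

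**Figure D1:**
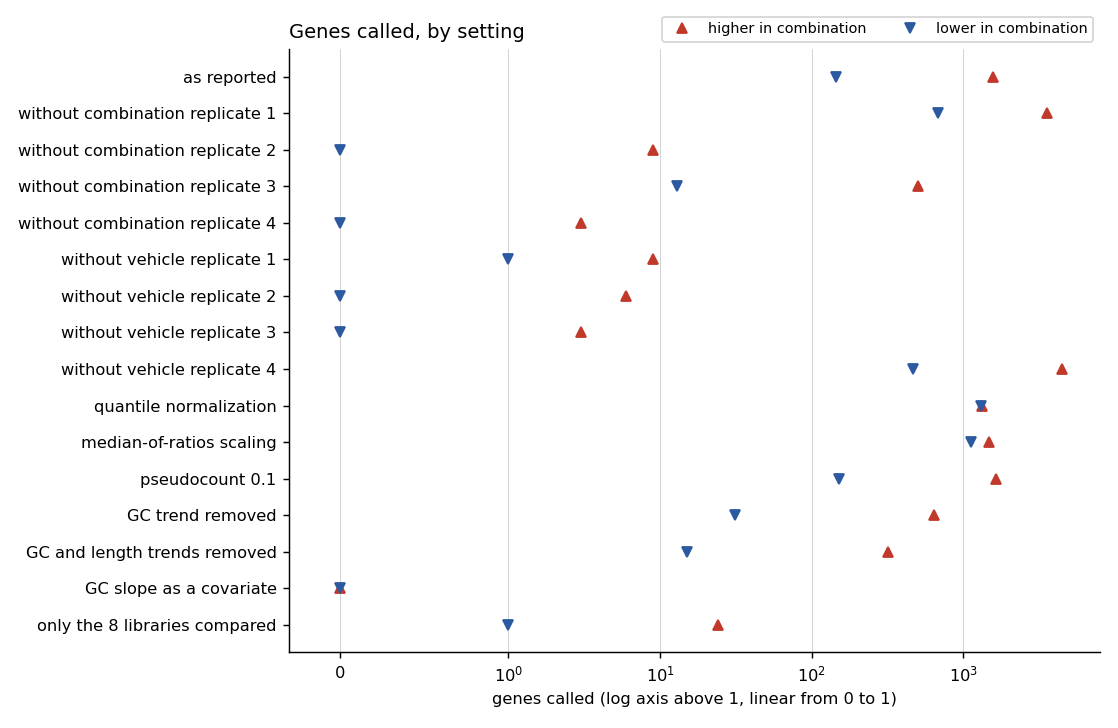
Number of genes called higher (upward triangles) and lower (downward triangles) in combination than in vehicle tumours, on a log axis above 1 and a linear one from 0 to 1, in the comparison as reported (1559 and 144) and under other settings. Leaving out combination replicate 1 gave 3550 and 679, and leaving out vehicle replicate 3 gave 3 and 0.

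The 5 genes that held up best encode proteins of myeloid cells, endothelium and stroma. Ccl8, a chemokine that draws monocytes and other leukocytes, was at 57.8, 63.2, 75.5 and 95.7 FPKM in combination replicates 1 to 4 and at 8.27, 9.42, 4.98 and 2.64 FPKM in vehicle replicates 1 to 4 (log2 change 3.42, SE 0.42, adjusted p = 0.00262). Every combination library exceeded every vehicle library. With the single drugs it averaged 24.2 ± 12.1 (sonidegib) and 19.8 ± 8.39 FPKM (anti-PD-L1; SD, n = 4 each). Ly6c1, a surface protein of the Ly6 family found on endothelial cells and some leukocytes, was at 11.1, 14.6, 19.8 and 23.4 FPKM in combination and 3.53, 2.77, 1.96 and 1.91 FPKM in vehicle tumours (2.34, SE 0.31, adjusted p = 0.00415). The groups did not overlap, and the near-identical neighbour Ly6c2 may share some of its reads. S100a4, a calcium-binding protein of fibroblasts and macrophages, was at 7.83, 21.9, 12.5 and 36.3 FPKM in combination and 2.3, 2.68, 1.22 and 3.8 FPKM in vehicle tumours (2.40, SE 0.36, adjusted p = 0.00942), again without overlap. It averaged 7.03 ± 1.49 FPKM with sonidegib alone and 6.32 ± 2.25 FPKM with anti-PD-L1 alone (SD, n = 4 each). Wfdc17, a small secreted protein of macrophages, was at 24.1, 33.7, 20 and 45.9 FPKM in combination and 4.18, 3.96, 1.66 and 6.35 FPKM in vehicle tumours (2.68, SE 0.40, adjusted p = 0.00942). With the single drugs it averaged 14.7 ± 9.92 (sonidegib) and 9.91 ± 1.25 FPKM (anti-PD-L1). Ifi205, an interferon-inducible protein of the HIN-200 family, was at 2.32, 3.39, 6.39 and 6.12 FPKM in combination tumours. In vehicle tumours it was at 0.221, 0.272, 0.167 and 0.361 FPKM (2.07, SE 0.32, adjusted p = 0.00942), and the single drugs gave 1.29 ± 0.738 (sonidegib) and 1.41 ± 1.07 FPKM (anti-PD-L1). Ccl8 lies at chr11:82115185-82116799, Ly6c1 at chr15:75044018-75048830, S100a4 at chr3:90603771-90606045, Wfdc17 at chr11:83703991-83706268 and Ifi205 at chr1:174011998-174031810 of GRCm38.

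Next by that count came Gm16567, an RNA annotated as antisense, which was at 3.31, 3.93, 5.59 and 4.93 FPKM in combination and 0.333, 0.905, 0.0848 and 0.562 FPKM in vehicle tumours (1.90, SE 0.31, adjusted p = 0.0141), without overlap. The 8 genes called in 4 fits were Lsp1, Mfap5, Retnla, Rarres2, Reg1 (1.17), the ribosomal protein pseudogene Rpl30-ps9 (1.52), Gm49322 (-1.41) and AY036118. Lsp1 is an actin-binding protein of leukocytes and Mfap5 a protein of elastic microfibrils. Lsp1 was at 6.12, 10.9, 10.9 and 10.7 FPKM in combination and 5.23, 2.41, 1.86 and 3.04 FPKM in vehicle tumours (1.39, SE 0.25, adjusted p = 0.0213), combination replicate 1 being well below the other 3 and still above every vehicle library. Mfap5 was at 7.18, 6.97, 7.77 and 9.96 FPKM in combination and 3.43, 1.38, 1.48 and 1.33 FPKM in vehicle tumours (1.67, SE 0.29, adjusted p = 0.0213). Retnla, a secreted protein that marks alternatively activated mouse macrophages, was at 5.17, 2.34, 6.87 and 22.7 FPKM in combination and 0.835, 0.662, 0.115 and 0.362 FPKM in vehicle tumours (2.42, SE 0.48, adjusted p = 0.0342). It varied widely within the combination, with replicate 4 the highest, and it averaged 0.661 ± 0.714 with sonidegib and 1.43 ± 1.15 FPKM with anti-PD-L1.

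The largest rise and the largest fall of all called genes lay in the ribosomal RNA repeat of chromosome 17. AY036118, a long noncoding RNA at chr17:39847113-39848035 of GRCm38 on the minus strand, was at 2708, 1890.1, 3632 and 2495 FPKM in combination and 7.79e-06, 7.30e-06, 215 and 6.25e-07 FPKM in vehicle tumours (9.41, SE 1.44, adjusted p = 0.0213). The groups were far apart, and vehicle replicate 3 was the 1 vehicle library above 1 FPKM. It averaged 1372 ± 1110.0 FPKM with sonidegib and 2.62e-05 ± 1.82e-05 FPKM with anti-PD-L1 (SD, n = 4 each). The gene lies inside CT010467.1, annotated as ribosomal RNA on the same strand, and inside Gm42418 on the other, so how the authors' model divided fragments among these is uncertain. Gm26917, their neighbour, was at 4755, 2276, 1796 and 1747 FPKM in combination and 11550.1, 17577, 16446 and 4939.7 FPKM in vehicle tumours (-2.23, SE 0.52, adjusted p = 0.0342), without overlap. CT010467.1 (-0.76, adjusted p = 0.236) and Gm42418 (-1.19, adjusted p = 0.102) did not pass, and both were above 0 with the GC slope as a covariate. The 4 genes summed to 18339.5, 6905, 9184 and 7069 FPKM in combination and 18921, 25626, 24975 and 11807 FPKM in vehicle tumours (exact two-sided permutation p = 0.0571), which was 0.963 ± 0.505% of the total FPKM in combination and 1.65 ± 0.303% in vehicle libraries (SD, n = 4 each; exact two-sided permutation p = 0.114). Signal from this repeat depends on how much ribosomal RNA a library retains, and its part in the other changes was not tested. Gm26917, Gm42418 and CT010467.1 were picked after their values were seen.

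**Figure D2:**
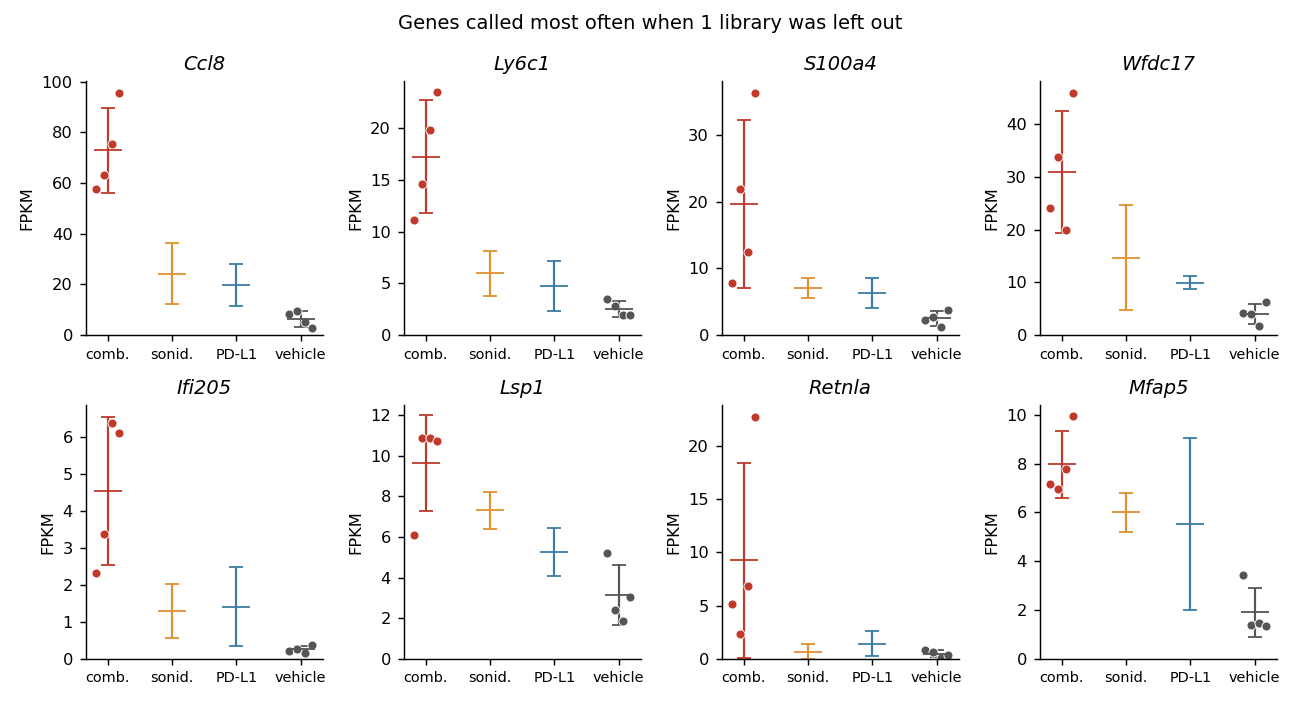
FPKM of 8 genes in combination and vehicle tumours (points are libraries, 4 per group, horizontal marks and bars are mean ± SD), with the mean ± SD of the tumours given sonidegib or anti-PD-L1 alone in between (comb., combination; sonid., sonidegib; PD-L1, anti-PD-L1). For each of the 8 genes the combination points lie above the vehicle points without overlap. Ccl8 was at 57.8 FPKM or more in combination and at 9.42 FPKM or less in vehicle tumours.

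Interferon-inducible GTPases were the list with the largest median change among the 47 examined. Of 22 listed genes 19 passed the filter, 12 rose and 0 fell, with a median log2 change of 2.03 against 0.26 over all genes tested, and their share of calls, 63.2%, stood beside 11.3% of all genes. Gm4951, F830016B08Rik and Gbp2b were under 1 FPKM in all vehicle libraries and passed through other groups, so the filter favoured this share. The high values among combination libraries were those of combination replicates 2 to 4. Iigp1, an immunity-related GTPase of the vacuole membrane of parasites, was at 6.94, 188, 356 and 203 FPKM in combination and 3.41, 9.09, 4.37 and 10.6 FPKM in vehicle tumours (3.82, SE 0.92, adjusted p = 0.0357; 5.04 without combination replicate 1). Combination replicate 1 lay inside the vehicle range. Igtp was at 18.6, 83.5, 222 and 88.9 FPKM in combination and 15.1, 23.1, 12.8 and 20.6 FPKM in vehicle tumours (2.04, SE 0.54, adjusted p = 0.0357). Gbp2, a guanylate-binding protein, was at 13, 49.2, 91.1 and 50.3 FPKM in combination and 9.65, 12.2, 5.52 and 21.9 FPKM in vehicle tumours (1.83, SE 0.49, adjusted p = 0.0359). In both, replicate 1 was again within the vehicle range, and replicate 3 was the highest of the combination libraries. Ifi47, the GTPase also called IRG-47, was at 4.77, 25.3, 37.3 and 30.1 FPKM in combination and 2.42, 4.29, 2.13 and 5.46 FPKM in vehicle tumours (2.24, SE 0.48, adjusted p = 0.0342).

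The other members that rose had the same order of libraries. Gbp10 (2.37), Gbp9 (2.03), Irgm1 (1.80), Irgm2 (1.52), Gbp7 (1.39) and Gbp2b (1.24) were all highest in combination replicate 3 and lowest among combination libraries in replicate 1, as were Gm4951 (2.61) and F830016B08Rik (2.07). The summed FPKM of all 22 listed genes, those under the filter included, was 79.1, 615, 1323 and 694 in combination replicates 1 to 4, against 62.5, 108, 57.4 and 106 in vehicle replicates 1 to 4. Combination replicate 1 thus lay between the vehicle libraries, and the other 3 combination libraries were far above all of them. Members of the Gbp and Irgm groups are close copies of each other, and fragments may be divided between them by the authors' model. Without combination replicate 1 all 19 rose (median 2.69). With both trends removed 1 of the 12, Gbp7, stayed called (1.07, adjusted p = 0.0473), and Ifi47 and Irgm1 had no annotated length to fit. The list median was then 1.63.

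RefSeq promoter windows, 250 bases before to 50 after the gene's start in GRCm38.p6, were available for 11 of the 19 tested GTPase genes, 7 of them called. The interferon-stimulated response element, searched as TTTC, any 2 bases, TTTC on either strand, was in 10 of the 11 (90.9%), against 3.49% of all 27025 windows and 3.11% of the windows of genes tested. The gamma-activated site, TTCNNNGAA on either strand, was in 6 of the 11 (54.5%), against 8.47% of all windows. These matches are a description of the letters and show no binding. The stretches around the response element in the 6 called genes that hold it are printed since these genes rose together; each is given 5′ to 3′ on the strand of its gene, the match in capitals with 20 bases on either side (for Irgm1 a further match reaches into these and leaves 14 after it), and the distance is from the match to the gene's start.

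Irgm1, chr11:48871421-48871470, minus strand, 30 bases before the start: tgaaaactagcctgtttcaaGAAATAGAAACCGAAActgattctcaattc
Irgm2, chr11:58214893-58214942, plus strand, 64 bases before the start: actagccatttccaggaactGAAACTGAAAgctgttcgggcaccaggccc
Igtp, chr11:58199502-58199551, plus strand, 34 bases before the start: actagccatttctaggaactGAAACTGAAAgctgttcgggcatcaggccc
Gbp2, chr3:142620584-142620633, plus strand, 59 bases before the start: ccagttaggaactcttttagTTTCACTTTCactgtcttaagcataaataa
Gbp2b, chr3:142594690-142594739, plus strand, 137 bases before the start: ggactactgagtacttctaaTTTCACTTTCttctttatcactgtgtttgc
Gbp7, chr3:142530263-142530312, plus strand, 53 bases before the start: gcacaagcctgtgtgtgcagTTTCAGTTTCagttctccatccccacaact

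In Irgm1 the capitals cover 2 overlapping matches. Irgm2 and Igtp, neighbours on chromosome 11, share the 10 letters of the match, and Gbp2 and Gbp2b share their match too. The called gene with a window but no match was Ifi47.

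Few antigen presentation genes were called with all libraries, and more without combination replicate 1. Of 20 tested genes of MHC class I presentation and the immunoproteasome 3 rose and 0 fell (15%, against 10.3% of all genes higher; median 0.71, against 0.26 over all genes), and 13 rose without combination replicate 1, where 23.5% of all genes did (median 0.97, against 0.28). B2m, which encodes beta-2 microglobulin, the invariant partner of class I heavy chains, was at 766, 2759, 1996 and 4819 FPKM in combination and 467, 677, 399 and 1191 FPKM in vehicle tumours (1.77, SE 0.49, adjusted p = 0.0369). Erap1, which trims peptides for class I, was at 6.96, 37, 27.4 and 44.4 FPKM in combination and 8.62, 10, 3.17 and 11.9 FPKM in vehicle tumours (1.52, SE 0.42, adjusted p = 0.0373), and Psmb9, a subunit of the immunoproteasome, at 22, 53.2, 82.7 and 65.9 FPKM in combination and 19, 24.9, 17.9 and 26.1 FPKM in vehicle tumours (1.18, SE 0.36, adjusted p = 0.0433). For each of the 3, combination replicates 2 to 4 exceeded all vehicle libraries and replicate 1 did not. Of 10 tested MHC class II genes 1 rose, Ctss, the cathepsin that cleaves the invariant chain (1.65, SE 0.44, adjusted p = 0.0357), which is 10% of the list, with a median of 0.71, and 7 rose without combination replicate 1. The class II chain gene H2-Aa was at 22.1, 189, 124 and 154 FPKM in combination and 13.7, 53.7, 30 and 30.3 FPKM in vehicle tumours and did not pass the test (1.69, adjusted p = 0.0896; 2.38, adjusted p = 0.00528 without combination replicate 1).

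Of 10 tested factors and chemokines of the interferon gamma pathway 3 rose and 0 fell (30%, against 10.3% of all genes higher; median 0.91). Among them were Cxcl9 and Cxcl11, ligands of the receptor Cxcr3 on activated T cells (Cxcl11 by 1.13). Cxcl11 was under 1 FPKM in all vehicle libraries, so the filter favoured this count. Cxcl9 was at 0.536, 21.2, 20.3 and 12.6 FPKM in combination and 0.65, 1.19, 0.543 and 1.11 FPKM in vehicle tumours (2.43, SE 0.71, adjusted p = 0.0445), so that combination replicate 1 was at the level of the lowest vehicle library. Ifng, the gene of interferon gamma itself, did not reach the filter: it was at 0.102, 0.246, 0.525 and 0.239 FPKM in combination tumours and listed at 0 in all 4 vehicle libraries (exact two-sided permutation p = 0.0286, the smallest possible). The type I interferon list had another order of libraries. Of its 28 genes 3 rose, among them Ifi27l2a (2.18) and Ifit2 (1.86), which is 10.7%, about the share of all genes (10.3%), with a median of 0.41. Ifi27l2a was at 71.6, 25.9, 143 and 376 FPKM in combination and 38.8, 24.4, 10.7 and 20.4 FPKM in vehicle tumours (2.18, SE 0.61, adjusted p = 0.0386), with replicate 2 the lowest and replicate 4 the highest of the combination. The mean level of the list, as log2 deviation relative to the median gene, was 0.00745, -0.88, 0.51 and 1.27 in combination replicates 1 to 4, against -0.0723, -0.43, -0.0655 and -0.26 in vehicle replicates 1 to 4.

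T cell genes were low in all 8 tumours and higher in 3 of the 4 combination tumours. In bulk RNA, fewer cells of a type and less RNA per cell cannot be told apart. The T cell list has 24 markers, of which 8 reached the filter and 5 rose; a marker near 1 FPKM can pass through the higher group alone, so this count was favoured by the filter and is not set against the 11.3% of all genes. Cd3g, a chain of the T cell receptor complex, was at 0.679, 4.17, 3.29 and 6.34 FPKM in combination and 0.0746, 0.198, 0.0905 and 0.574 FPKM in vehicle tumours (1.74, SE 0.33, adjusted p = 0.0278). Trbc2, a constant region of the receptor beta chain, was at 0.43, 9.13, 6.36 and 9.93 FPKM in combination and 0.122, 1.04, 0.392 and 0.535 FPKM in vehicle tumours (1.97, SE 0.51, adjusted p = 0.0362), and its copy Trbc1 (1.36) and the alpha constant region Trac (1.22) followed it. Combination replicate 1 lay inside the vehicle range for Trbc2 and Trac, just below it for Trbc1 and just above it for Cd3g. The fifth gene, Thy1, is also made by fibroblasts; it was at 6.17, 8.48, 5.53 and 8.04 FPKM in combination and 3.32, 2.2, 2.35 and 3.92 FPKM in vehicle tumours (1.03, SE 0.24, adjusted p = 0.0342), without overlap. With both trends removed Cd3g and Thy1 stayed called and Trbc2, Trbc1 and Trac did not.

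Of the coreceptors, which did not reach the filter, Cd8a averaged 1.4 ± 0.816 FPKM in combination and 0.315 ± 0.185 FPKM in vehicle tumours (SD, n = 4 each; exact two-sided permutation p = 0.0571). Cd4 averaged 0.691 ± 0.251 FPKM in combination and 0.535 ± 0.189 FPKM in vehicle tumours (exact permutation p = 0.4), and Foxp3, the factor of regulatory T cells, 0.137 ± 0.0919 FPKM in combination and 0.0991 ± 0.0693 FPKM in vehicle tumours (exact permutation p = 0.543). Of 18 listed genes of cytotoxic T and NK cells 6 passed the filter, and 5 rose, beside 11.3% of all genes; the filter favoured this count too, as for Gzmb, which was under 1 FPKM in all vehicle libraries. Xcl1, a chemokine of activated T and NK cells, was at 0.963, 5.15, 7.24 and 8.93 FPKM in combination and 0.366, 0.573, 0.122 and 0.642 FPKM in vehicle tumours (1.99, SE 0.42, adjusted p = 0.0342). Ccl5 was at 2.9, 5.31, 7.96 and 4.73 FPKM in combination and 1.21, 1.82, 1.57 and 2.44 FPKM in vehicle tumours (1.13, SE 0.26, adjusted p = 0.0342); neither gene's groups overlapped. Both stayed called with both trends removed. Nkg7 (1.26), a granule membrane protein, and Ctsw (0.91), a cathepsin of cytotoxic cells, rose as well. Granzyme B was the exception in its library order: Gzmb was at 1.59, 0.658, 1.2 and 1.43 FPKM in combination and 0.298, 0.433, 0.0746 and 0.599 FPKM in vehicle tumours (0.71, SE 0.22, adjusted p = 0.0469), highest in combination replicate 1, and lost its call without that library (0.63, adjusted p = 0.0557). Of 13 listed B and plasma cell markers 3 passed the filter and 1 rose (33.3%, against 10.3% of all genes higher), the immunoglobulin heavy chain Ighm (0.83, SE 0.23, adjusted p = 0.0377).

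**Figure D3:**
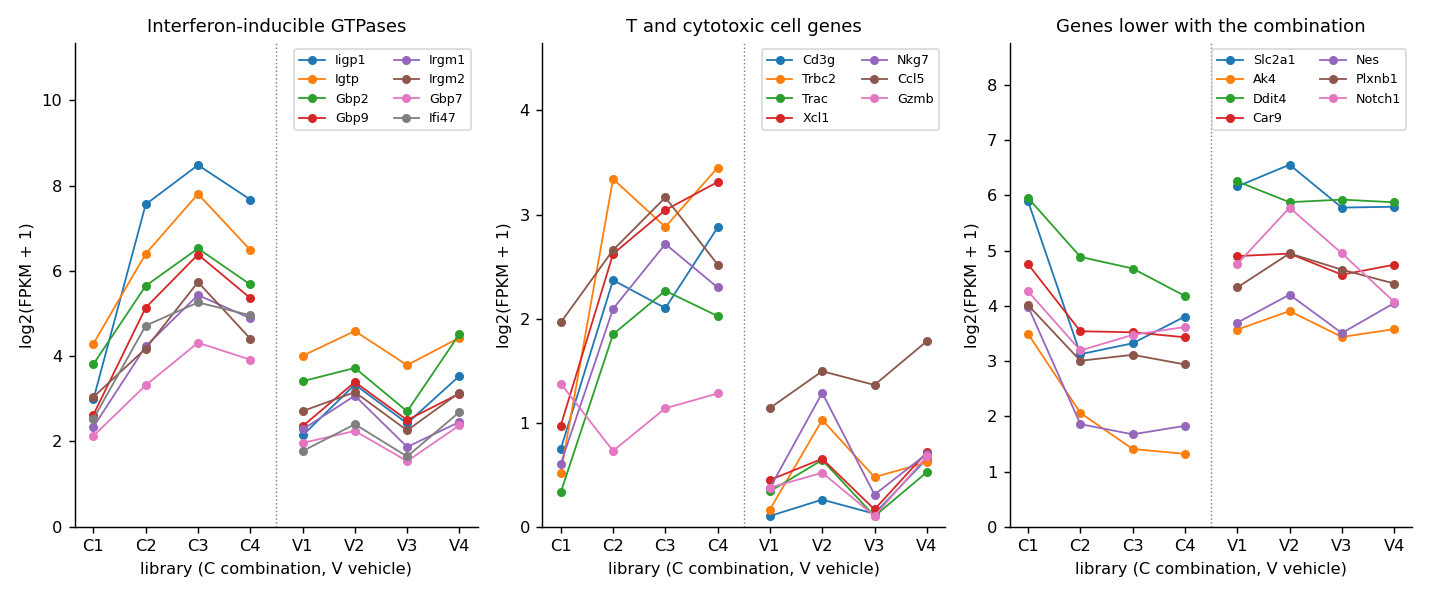
log2(FPKM + 1) of interferon-inducible GTPases, of T and cytotoxic cell genes and of genes called lower, in combination (C1 to C4) and vehicle (V1 to V4) libraries; lines only join the values of a gene and give the libraries no order. Combination replicate 1 sits near the vehicle libraries for most of these genes, for example Iigp1 at 6.94 FPKM there, against 188 to 356 FPKM in the other combination libraries and 3.41 to 10.6 FPKM in vehicle tumours.

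Several chemokines that act on myeloid cells were above vehicle in combination replicate 1 too. Of 36 listed chemokine ligands 26 passed the filter, 10 rose and 0 fell (38.5%, against 10.3% of all genes higher), with a median of 0.70. For 10 the groups did not overlap, against 3.12% of all genes. These were not the same 10, since Cxcl9 and Cxcl11 rose with overlap. Ccl11, Cxcl11 and Xcl1 were under 1 FPKM in all vehicle libraries and passed through other groups, so the filter favoured these counts. Ccl7 and Ccl12, which act on the monocyte receptor Ccr2 and lie in the cluster of Ccl8, were at 1.47, 4.4, 3.78 and 5.34 FPKM (Ccl7) and 6.15, 14.8, 7.52 and 16.6 FPKM (Ccl12) in combination tumours. In vehicle tumours Ccl7 was at 0.825, 0.711, 0.359 and 1.3 FPKM (1.34, SE 0.31, adjusted p = 0.0342) and Ccl12 at 4.28, 3, 1.86 and 3.96 FPKM (1.46, SE 0.32, adjusted p = 0.0342). Ccl6 was at 18.9, 9.56, 15.1 and 19.9 FPKM in combination and 2.48, 4.39, 2.74 and 5.97 FPKM in vehicle tumours (1.79, SE 0.36, adjusted p = 0.0342), with replicate 1 among the highest. Ccl11, which draws eosinophils, and Ccl9 rose by 1.22 and 1.04. For all 5 genes every combination library exceeded every vehicle library.

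Of 20 tested macrophage and monocyte markers 4 rose and 0 fell (20%, against 10.3% of all genes higher; median 0.52, against 0.26). Ccr2, the receptor for Ccl7 and Ccl12 on inflammatory monocytes, was at 1.59, 7.29, 6.43 and 9.3 FPKM in combination and 0.572, 0.895, 0.344 and 0.581 FPKM in vehicle tumours (2.01, SE 0.33, adjusted p = 0.0152). Since Ccr2 was under 1 FPKM in all vehicle libraries, the filter favoured the count of rises. Mrc1, the mannose receptor of alternatively activated macrophages, was at 4.58, 3.28, 4.9 and 5.25 FPKM in combination and 1.57, 1.45, 0.915 and 1.02 FPKM in vehicle tumours (1.30, SE 0.25, adjusted p = 0.0278), with combination replicate 1 as high as the others. Lyz2, the lysozyme of myeloid cells, was at 76.2, 172, 104 and 170.0 FPKM in combination and 37.4, 62.6, 26.7 and 54.8 FPKM in vehicle tumours (1.5, SE 0.33, adjusted p = 0.0342), and Ly6c2, a marker of inflammatory monocytes that shares sequence with Ly6c1, rose by 1.29 (adjusted p = 0.0357). The receptor Csf1r, on most macrophages, was at 18.5, 16.5, 20 and 16.3 FPKM in combination and 21.2, 30.8, 19.9 and 16.4 FPKM in vehicle tumours (-0.26, adjusted p = 0.42; 0.19 with both trends removed), so the groups overlapped. Adgre1, which encodes F4/80, was at 5.49, 9.95, 6.21 and 10.3 FPKM in combination and 3.71, 6.01, 3.36 and 6.69 FPKM in vehicle tumours (0.60, adjusted p = 0.0905). Csf1r and Adgre1 were picked for comparison after their values were seen.

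Other myeloid genes among the largest rises were Plac8, at 4.23, 18.4, 12.1 and 20.7 FPKM in combination and 0.942, 1.36, 1.93 and 2.99 FPKM in vehicle tumours (2.27, SE 0.37, adjusted p = 0.0141), and Cbr2, a carbonyl reductase, at 21, 69.7, 93.9 and 34.3 FPKM in combination and 11.9, 9.62, 5.14 and 5.44 FPKM in vehicle tumours (2.48, SE 0.52, adjusted p = 0.0342). Aif1, the actin-binding protein of macrophages also called Iba1, rose by 1.81 (SE 0.34, adjusted p = 0.0278), and Clec2d, a lectin-like ligand of NK cell receptors, by 2.18 (SE 0.39, adjusted p = 0.0213). All 4 genes had no overlap between groups. Of the complement list 4 of 19 tested genes rose (21.1%, against 10.3% of all genes higher), with a median of 0.68, against 0.26 over all genes. Among them were the inhibitors Cd59a (1.63) and Serping1 (0.99) and the protease C1s1 (1.48). C1s1 was at 3.92, 5.84, 6.52 and 5.25 FPKM in combination and 1.25, 1.53, 0.872 and 1.46 FPKM in vehicle tumours (SE 0.28, adjusted p = 0.0278). Of the 6 tested neutrophil markers 0 were called (median 0.22), as were 0 of 4 dendritic cell markers (median 0.23, -0.01 after median-of-ratios scaling).

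Stromal genes rose in part: 8 of 30 fibroblast and matrix genes rose and 0 fell (26.7%, against 10.3% of all genes higher; median 0.59, 0.97 with both trends removed), and 11 had no overlap between groups, all higher (3.12% of all genes were). Dcn, the small proteoglycan decorin, which binds collagen and TGF-beta, was at 22.3, 49.7, 40.9 and 69.2 FPKM in combination and 6.4, 2.66, 1.67 and 6.77 FPKM in vehicle tumours (3.15, SE 0.55, adjusted p = 0.0274). Lum, its relative lumican, was at 6.77, 23.7, 12 and 27.4 FPKM in combination and 1.83, 1.04, 0.377 and 3.35 FPKM in vehicle tumours (2.75, SE 0.51, adjusted p = 0.0278). Ogn, osteoglycin of the same family, was at 1.62, 2.63, 4.26 and 13.8 FPKM in combination and 0.556, 0.39, 0.217 and 0.595 FPKM in vehicle tumours (1.86, SE 0.50, adjusted p = 0.0371). None of the 3 overlapped between groups, and combination replicate 1 was the lowest combination library each time. Of the 8 small leucine-rich proteoglycans tested, these 3 were the ones called (37.5%, against 10.3% of all genes higher). Ogn was under 1 FPKM in all vehicle libraries, so the filter favoured this count. Postn, periostin of the tumour matrix, was at 13.4, 239, 83.1 and 196 FPKM in combination and 7.97, 11.1, 7.75 and 22.4 FPKM in vehicle tumours (2.83, SE 0.71, adjusted p = 0.0357), with replicate 1 inside the vehicle range.

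Mmp2, the gelatinase of stromal cells, was at 10.3, 11.7, 19.3 and 10.5 FPKM in combination and 6.52, 6.77, 4.63 and 4.53 FPKM in vehicle tumours (1.05, SE 0.25, adjusted p = 0.0342). Pdgfra, the fibroblast receptor for platelet-derived growth factor, was at 2.4, 5.94, 6.26 and 4.49 FPKM in combination and 1.44, 1.89, 1.46 and 1.66 FPKM in vehicle tumours (1.09, SE 0.29, adjusted p = 0.0357), and the inhibitor Timp1 rose by 1.15 (adjusted p = 0.0357). For neither Mmp2 nor Pdgfra did the groups overlap. Col1a1, a fibrillar collagen chain, picked after its values were seen, was at 25.1, 40.5, 40.2 and 25.6 FPKM in combination and 40.5, 53.1, 42.1 and 30.6 FPKM in vehicle tumours (-0.34, adjusted p = 0.415; 0.39 with both trends removed). Rarres2, the chemoattractant chemerin, was at 21.3, 37.3, 11 and 18.6 FPKM in combination and 3.74, 2.15, 2.12 and 5.42 FPKM in vehicle tumours (2.35, SE 0.39, adjusted p = 0.0141), without overlap. Il33, a cytokine released from damaged stroma and epithelium, was at 1.83, 26.7, 10.5 and 4.74 FPKM in combination and 0.852, 0.655, 0.52 and 0.551 FPKM in vehicle tumours (2.37, SE 0.64, adjusted p = 0.0382). Nupr1, a stress-induced nuclear protein, was at 45.1, 216, 144 and 168 FPKM in combination and 29.9, 28.7, 7.98 and 32.2 FPKM in vehicle tumours (2.45, SE 0.46, adjusted p = 0.0278). Ly6a, the stem and stromal cell antigen Sca-1, was at 30.1, 157, 175 and 193 FPKM in combination and 13.3, 17, 9.26 and 34.4 FPKM in vehicle tumours (2.70, SE 0.47, adjusted p = 0.0213). Combination replicate 1 was above all vehicle libraries for Il33 and Nupr1 but inside their range for Ly6a.

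Genes of fat and muscle differed between libraries of the same group. The mean level of 8 adipocyte genes, as log2 deviation relative to the median gene, was 1.64, -0.52, 0.0139 and 0.21 in combination replicates 1 to 4 and 0.38, -0.65, -0.32 and -0.66 in vehicle replicates 1 to 4. Fabp4, a fatty acid carrier of adipocytes, macrophages and capillaries, was the 1 of the 8 that rose (12.5%, against 10.3% of all genes higher). It was at 26.2, 5.74, 6.3 and 6.4 FPKM in combination and 1.79, 0.547, 0.805 and 2.27 FPKM in vehicle tumours (2.15, SE 0.45, adjusted p = 0.0342, and 1.67 without combination replicate 1). Skeletal muscle genes were high in combination replicate 4 and vehicle replicate 1, whose 16 tested members summed to 8.75, 24.3, 14.5 and 543 FPKM in combination replicates 1 to 4 and 318, 14.4, 12.1 and 41 FPKM in vehicle replicates 1 to 4; 0 were called. Luminal markers had 0 of 18 called (median -0.28, turning to 0.03 with both trends removed) and levels of 0.25, -0.25, -0.32 and -0.30 in combination and 0.26, 0.20, -0.17 and 0.43 in vehicle tumours. Of 13 endothelial and pericyte markers 1 rose, Ly6c1 (7.69%, against 10.3% of all genes higher), with a list median of -0.04 that turned to 0.32 with both trends removed. The part of these levels in the changes above was not tested.

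**Figure D4:**
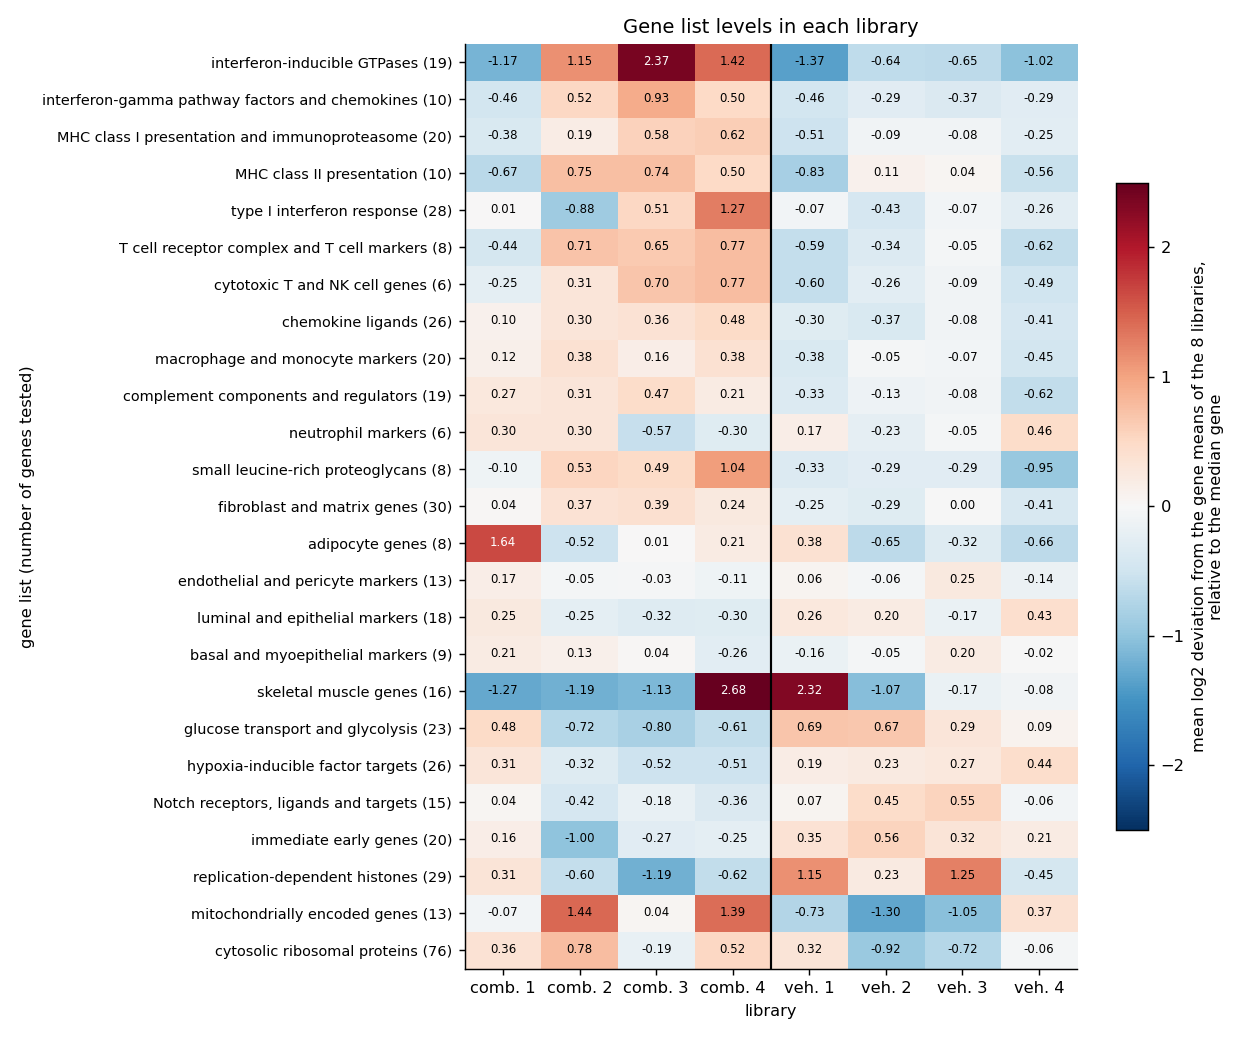
Mean log2 deviation of 25 gene lists (rows, number of genes tested in brackets) from the gene means of the 8 libraries, relative to the median gene, in combination (left of the line) and vehicle libraries; red is higher and blue lower. Combination replicate 1 is at -1.17 for the interferon-inducible GTPases, against 1.15 to 2.37 in the other combination libraries, and at 1.64 for adipocyte genes.

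The largest fall among the protein-coding genes called was that of a glucose transporter, and combination replicate 1 did not share it. Slc2a1, the glucose transporter GLUT1, was at 58.5, 7.73, 9.01 and 13 FPKM in combination and 70.7, 93.2, 54 and 54.5 FPKM in vehicle tumours (-2.04, SE 0.50, adjusted p = 0.0346; -2.66 without combination replicate 1). Ak4, a mitochondrial adenylate kinase, was at 10.3, 3.17, 1.66 and 1.5 FPKM in combination and 10.9, 14, 9.84 and 11 FPKM in vehicle tumours (-1.55, SE 0.40, adjusted p = 0.0357). Ddit4, which restrains mTOR, was at 61, 28.6, 24.6 and 17.1 FPKM in combination and 75.3, 57.8, 59.8 and 57.8 FPKM in vehicle tumours (-1.06, SE 0.33, adjusted p = 0.0448). For these 3, combination replicate 1 was within the vehicle range and replicates 2 to 4 lay below it. Car9, the carbonic anhydrase of hypoxic cells, was at 26, 10.6, 10.5 and 9.79 FPKM in combination and 28.9, 29.8, 22.7 and 25.8 FPKM in vehicle tumours (-0.98, SE 0.30, adjusted p = 0.0456), and Zfp395, a zinc finger protein, at 26.1, 10.6, 15.6 and 19.4 FPKM in combination and 44.4, 104, 65.9 and 20.3 FPKM in vehicle tumours (-1.50, SE 0.44, adjusted p = 0.0399).

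Of 26 tested targets of hypoxia-inducible factors 4 fell and 0 rose (15.4%, against 0.953% of all genes lower; median -0.20), and of 23 genes of glucose transport and glycolysis 1, Slc2a1, fell (4.35%; median -0.64, against 0.26 over all genes). Without combination replicate 1, 8 hypoxia targets and 11 glycolysis genes fell, where 4.5% of all genes did (medians -0.44 and -0.95). Ldha, the lactate dehydrogenase subunit, was at 798, 232, 234 and 313 FPKM in combination and 879, 698, 381 and 575 FPKM in vehicle tumours (-0.82, adjusted p = 0.195; -1.23, adjusted p = 0.0351 without combination replicate 1). The glycolysis list averaged 0.48, -0.72, -0.80 and -0.61 in combination replicates 1 to 4 and 0.69, 0.67, 0.29 and 0.0852 in vehicle replicates 1 to 4. With both trends removed none of the called hypoxia or glycolysis genes passed (Slc2a1 -1.69, adjusted p = 0.0517). Ldha was picked after its values were seen.

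The core of the hypoxia response element, ACGTG on either strand, was in the promoter windows of 11 of the 18 hypoxia targets that had one, called or not (61.1%), against 19.7% of all windows and 25.7% of the windows of genes tested. Among genes called lower, 17 of 97 windows held the core (17.5%), a smaller share than among genes tested. The stretches of Car9, Ddit4 and, from the glycolysis list, Slc2a1 are printed since these genes were low together in combination replicates 2 to 4, with the core in capitals and 20 bases on either side, 5′ to 3′ on the strand of the gene, from the same RefSeq windows.

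Car9, chr4:43506988-43507032, plus strand, 18 bases before the start: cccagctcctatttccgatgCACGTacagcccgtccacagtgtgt
Ddit4, chr10:59951933-59951977, minus strand, 187 bases before the start: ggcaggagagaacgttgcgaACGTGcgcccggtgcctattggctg
Slc2a1, chr4:119108689-119108733, plus strand, 36 bases before the start: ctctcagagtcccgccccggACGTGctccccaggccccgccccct

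Ak4 had a window without the core. The presence of these letters does not show that a factor was bound.

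Receptor and adhesion genes were called in both directions. Of 20 receptor tyrosine kinases 2 fell, Fgfr1 (-1.35) and Epha2 (-1.29), and 1 rose, Pdgfra (15%, against 11.3% of all genes; median -0.08, 0.06 with both trends removed). Of 18 genes of adherens junctions, planar polarity and protocadherins 2 fell, Celsr2 and Dlg5 (-0.79), and 1 rose, the cadherin Cdh2 (1.12; 16.7% called, median -0.06, 0.24 with both trends removed). Plxnb1, a receptor for semaphorins, was at 15.2, 7.04, 7.66 and 6.67 FPKM in combination and 19.2, 29.9, 24.2 and 20.2 FPKM in vehicle tumours (-1.32, SE 0.25, adjusted p = 0.0278). Celsr2, a cadherin of planar polarity, was at 22.5, 11.5, 10.5 and 13.2 FPKM in combination and 32, 79.3, 44 and 22.4 FPKM in vehicle tumours (-1.46, SE 0.34, adjusted p = 0.0342). Ltbp3, which holds latent TGF-beta, was at 26, 19.5, 19.2 and 19.8 FPKM in combination and 38.3, 100.2, 57.4 and 36.6 FPKM in vehicle tumours (-1.31, SE 0.29, adjusted p = 0.0342). The basement membrane proteoglycan Hspg2 (-1.24) fell too. The intermediate filament gene Nes was at 14.9, 2.63, 2.19 and 2.55 FPKM in combination and 12, 17.4, 10.4 and 15.6 FPKM in vehicle tumours (-1.53, SE 0.44, adjusted p = 0.039), with replicate 1 inside the vehicle range. Of Plxnb1, Celsr2, Ltbp3 and Nes, the groups were apart in all libraries for Plxnb1 and Ltbp3. All 4 Notch receptors fell, Notch1 by 1.25, Notch3 by 1.11, Notch4 by 0.80 and Notch2 by 0.68 on the log2 scale, out of 15 tested genes of the pathway (26.7%, against 0.953% of all genes lower; median -0.22, 0.12 with both trends removed, when Notch4 was at 0.0571). Notch1 was at 18.2, 8.15, 10.1 and 11.3 FPKM in combination and 26.1, 53.9, 30 and 15.8 FPKM in vehicle tumours (SE 0.36, adjusted p = 0.039).

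Calls went with GC content. Genes called lower had a median GC content of 57.9% and a median length of 4029 bases, those called higher 44.0% and 2391 bases, and those not called 50% and 2973 bases. The median log2 change was 0.75 in the tenth of genes with the lowest GC content and -0.21 in the tenth with the highest. With both trends removed Notch1 was at -0.52 (adjusted p = 0.204), Notch4 at 0.0571 (adjusted p = 0.836), Celsr2 at -0.65 (adjusted p = 0.101) and Plxnb1 at -0.58 (adjusted p = 0.0726), so that each lost its call and Notch4 its direction. Hspg2 (-0.25), Dlg5 (-0.0982), Notch2 (-0.13) and Notch3 (-0.29) lost their calls too. So did Fgfr1 (-0.82), Epha2 (-0.76), Ltbp3 (-0.62) and Nes (-0.96). Pdgfra (1.18) and Cdh2 (1.26), which rose, stayed called.

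**Figure D5:**
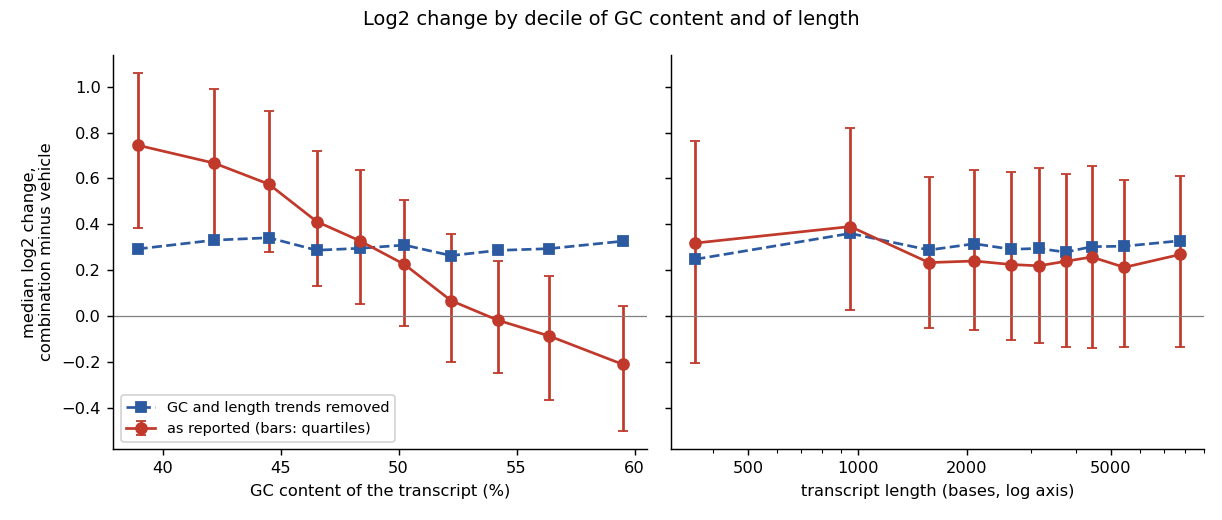
Median log2 change, combination minus vehicle, in 10 equal groups of genes by GC content (left, percent) and by transcript length (right, bases, log axis); circles with bars are medians and quartiles as reported, squares the medians after both trends were removed. The reported medians run from 0.75 at the lowest to -0.21 at the highest GC content, while over length they lie between 0.21 and 0.39.

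Mitochondrial and ribosomal transcripts were higher, in an order of libraries unlike that of the interferon genes. Of 13 mitochondrially encoded genes 8 rose (61.5%, against 10.3% of all genes; median 1.60), led by mt-Atp8 (2.48) and mt-Co2 (2.23). They summed to 12620.4, 41949, 14152 and 38524 FPKM in combination replicates 1 to 4 and 7904, 3846, 3552 and 18642 FPKM in vehicle replicates 1 to 4, so that combination replicates 2 and 4 and vehicle replicate 4 were high and combination replicates 1 and 3 lay below vehicle replicate 4 (exact two-sided permutation p = 0.0857). Of 55 nuclear-encoded subunits of the respiratory chain 17 rose and 0 fell (30.9%; median 0.75). Ndufa5, of complex I, was at 31.6, 92.9, 41.5 and 102 FPKM in combination and 15.4, 10.2, 5.78 and 29.6 FPKM in vehicle tumours (2.12, SE 0.41, adjusted p = 0.0278), without overlap. Cox6c, of complex IV, was at 219.9, 571, 232 and 659 FPKM in combination and 181, 167, 58.9 and 181 FPKM in vehicle tumours (1.47, SE 0.40, adjusted p = 0.0369). Of 76 cytosolic ribosomal proteins 21 rose and 0 fell (27.6%; median 0.97), among them Rpl23. Rpl23 was at 311, 888, 426 and 886 FPKM in combination and 182, 101, 59.4 and 358 FPKM in vehicle tumours (2.00, SE 0.47, adjusted p = 0.0342), with combination replicate 1 below vehicle replicate 4. Ribosomal protein genes have many processed copies that can take up fragments. Without vehicle replicate 3 the change of Rpl23 was 1.59 and of Ndufa5 1.77, and neither passed (adjusted p = 0.114 for both), with 3 calls left among all genes.

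Of the growth and stress lists, DNA replication genes, p53 targets and heat shock genes had shares of 20%, 27.8% and 18.2% called, against 11.3% of all genes, and mitosis genes, immediate early genes and histones had 0 calls. Of 20 DNA replication genes 4 rose (median 0.39), among them Gins1 (1.36), Rrm1 (1.14) and Pola1 (1.13), and of 24 mitosis genes 0 were called (median 0.58), with 8 higher without combination replicate 1. Gins1, of the replicative helicase, was at 2.33, 6.2, 2.95 and 5.59 FPKM in combination and 1.01, 0.724, 0.342 and 2.05 FPKM in vehicle tumours (SE 0.30, adjusted p = 0.0342). Of 18 p53 targets 5 rose and 0 fell (median 0.28). Trp53inp1 was at 6.03, 55, 37.2 and 42.7 FPKM in combination and 4.56, 9.2, 2.82 and 9.9 FPKM in vehicle tumours (2.03, SE 0.56, adjusted p = 0.0378), Dram1, an autophagy gene, at 1.61, 4.25, 3.63 and 2.47 FPKM in combination and 0.737, 0.539, 0.358 and 0.863 FPKM in vehicle tumours (1.26, SE 0.26, adjusted p = 0.0342). Ccng1 (1.58), the death receptor Fas (1.39) and Sesn1 (0.77) completed the 5. Dram1 and Fas were under 1 FPKM in all vehicle libraries, so the filter favoured this count.

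Of 22 heat shock genes 3 rose, Hspe1 (1.62), Dnajb4 (1.08) and Hspa4 (1.05), and 1 fell, the inducible chaperone Hspa1a. Hspa1a was at 10.8, 4.21, 6.36 and 3.63 FPKM in combination and 15.9, 16.4, 11.2 and 61.8 FPKM in vehicle tumours (-1.69, SE 0.50, adjusted p = 0.0433); the groups did not overlap and vehicle replicate 4 was the highest by far. Immediate early genes had 0 of 20 called (median -0.37, 5 lower without combination replicate 1). Replication-dependent histones had 0 of 29 called but all 29 log2 changes were below 0 (median -0.81, against 0.26 over all genes), and 12 fell without combination replicate 1. Histone transcripts mostly lack a poly(A) tail, and their summed FPKM was 3537, 2051, 1352 and 2056 in combination replicates 1 to 4 and 6302, 3588, 4941 and 2321 in vehicle replicates 1 to 4.

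Few genes of the drugs' own pathways were called. Of the Hedgehog list 8 of 16 genes passed the filter and 0 were called, and 0 also without combination replicate 1. The list median was -0.13, 0.29 with both trends removed and -0.42 after median-of-ratios scaling. Over all genes tested the same medians were 0.26, 0.30 and 0.0124. Smo, the target of sonidegib, was at 14.4, 23, 15.9 and 18 FPKM in combination and 15, 27.3, 15.3 and 14.4 FPKM in vehicle tumours (0.0149, SE 0.24, adjusted p = 0.973; -0.32 after median-of-ratios scaling). Ptch1, the receptor that is also a target of the pathway, was at 3.29, 2.2, 2.15 and 2.66 FPKM in combination and 3.45, 4.5, 1.73 and 4.4 FPKM in vehicle tumours (-0.30, SE 0.23, adjusted p = 0.376). After median-of-ratios scaling, which called 1129 genes lower, Ptch1 was called lower too (-0.55, adjusted p = 0.0406 by limma). Gli1, the most direct readout of the pathway, was at 0.19, 0.0582, 0.11 and 0.181 FPKM in combination and 0.172, 0.0761, 0.035 and 0.0802 FPKM in vehicle tumours (exact two-sided permutation p = 0.314), and Hhip at 0.00909 FPKM or less in all 8. The groups overlapped for each of these 4 genes. Of 11 tested checkpoint and costimulatory genes 1 rose (9.09%, against 10.3% of all genes), Cd86, a ligand of Cd28 on antigen-presenting cells, at 0.636, 5.76, 2.63 and 4.23 FPKM in combination and 0.498, 1.01, 0.286 and 1.28 FPKM in vehicle tumours (1.14, SE 0.32, adjusted p = 0.0373). Cd274, the gene of PD-L1, was under the filter at 0.417, 0.71, 2.07 and 1.2 FPKM in combination and 0.32, 0.577, 0.336 and 0.465 FPKM in vehicle tumours (exact two-sided permutation p = 0.0857), with combination replicate 1 inside the vehicle range. Pdcd1, the gene of PD-1, was at 0.291, 1.24, 0.898 and 1.06 FPKM in combination and 0.292, 0.326, 0.201 and 0.387 FPKM in vehicle tumours (exact two-sided permutation p = 0.114), again with replicate 1 apart.

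Ceramide genes were examined since ceramide synthesis is another theme of the series. Of 29 tested sphingolipid genes 3 rose and 0 fell (10.3%, against 11.3% of all genes; median 0.27, -0.03 after median-of-ratios scaling). Sptssa, a small subunit of serine palmitoyltransferase, was at 14.9, 42.8, 21.8 and 41.1 FPKM in combination and 7.98, 8.13, 4.56 and 17.8 FPKM in vehicle tumours (1.57, SE 0.36, adjusted p = 0.0342). Ormdl1 (1.12) and Ormdl2 (1.08), which restrain the enzyme, rose too. Of the ceramide synthases Cers2 (0.00498, adjusted p = 0.992), Cers3 (0.13, adjusted p = 0.827), Cers5 (0.36, adjusted p = 0.317) and Cers6 (0.12, adjusted p = 0.782) did not pass, and each was below 0 under at least 1 of the other settings tried. Cers4, under the filter, was at 0.484, 0.43, 0.863 and 0.72 FPKM in combination and 0.279, 0.261, 0.305 and 0.362 FPKM in vehicle tumours, without overlap (exact two-sided permutation p = 0.0286, the smallest possible), and Cers1 averaged 0.0548 ± 0.0502 FPKM in combination and 0.155 ± 0.128 FPKM in vehicle tumours (exact two-sided permutation p = 0.2).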

How the data were processed

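RNA of transplanted MMTV-PyMT tumours was sequenced in 4 libraries per group. The deposited values are FPKM per gene and library, computed by the authors. TopHat and Cufflinks are named in the submitters' processing notes, with GRCm38.p6 and mm10 as builds. Their versions, the annotation and the settings were not given in the sources used here. Depth per library is unknown from FPKM, and a listed 0 can be a failed estimate. Cufflinks divides fragments of overlapping and similar genes by a model, so near-identical copies are uncertain.

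The log2 of FPKM + 1 was taken, with no scaling between libraries. Genes that reached 1 FPKM in 4 or more of 16 libraries were tested in limma 3.58.1 (R 4.3.3) with 1 mean per group over 16 libraries, an intensity trend and robust variance, two-sided, with Benjamini-Hochberg adjustment over 15105 genes at 0.05. Means of genes below that level were compared by exact permutation. GC content and length came from GENCODE M21 (53992 identifiers matched with version, 54547 without), promoter windows from RefSeq. The trends were removed per library by loess (span 0.4). A list level in a library is the mean deviation of its genes from their means over the 8 libraries, less the median deviation of all genes. The fit was tried on simulated data with independent noise for each gene and library and 200 changed genes. It recovered 41% of true log2 changes of 1 and 88% of those of 2, with 9 false calls. Such noise holds no shift shared by a whole library, so the simulation cannot show how such shifts affect the reported calls.

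The members and lists were chosen with earlier results of these data known. Genes were named by rule: the 25 largest rises and 25 largest falls among called genes that averaged 1 FPKM or more and had a usual symbol, called list members (up to 4 per list by size of change), up to 30 genes also called with both trends removed, the 15 lowest p, and 17 genes whatever their test. Further called list members are given as log2 changes, and Csf1r, Adgre1, Col1a1, Ldha and H2-Aa, which were not called, and Gm26917, Gm42418, CT010467.1 and Rpl30-ps9 were chosen after their values were seen. Other settings are in the closing section, and 2 of them, median-of-ratios scaling without vehicle replicate 3 and both trends removed with library medians aligned, were chosen after seeing the data. Some called list members are counted but not reported here by name.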

Additional observations from a re-analysis of the deposited data

Results flagged for a closer look

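A library lay far from the other 3 of its group, by Dixon's criterion at the 95% level, in 29 of 444 groups of 4 values tested for the genes named and the list levels; chance alone gives about 1 in 20 such groups. Combination replicate 1 was the library apart in 16 of them. It was low for Iigp1 (6.94 FPKM, others 188 to 356), Ly6a (30.1, others 157 to 193), Lsp1 (6.12, others 10.7 to 10.9), Calml3 (2.56, others 22 to 25.4) and Cd4 (0.32, others 0.777 to 0.873), and in the level of the T cell list (-0.44 on the log2 scale, others 0.65 to 0.77). It was high for Fabp4 (26.2 FPKM, others 5.74 to 6.4), Car9 (26, others 9.79 to 10.6), Nes (14.9, others 2.19 to 2.63), Plxnb1 (15.2, others 6.67 to 7.66), Ltbp3 (26, others 19.2 to 19.8), Aplp1 (5.39, others 1.23 to 1.52) and Slco2a1 (12.1, others 2.75 to 3.56). Its levels were also high for the luminal list (0.25, others -0.32 to -0.25), for glucose transport and glycolysis (0.48, others -0.80 to -0.61) and for endoplasmic reticulum stress (0.27, others -0.14 to -0.09).

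Combination replicate 4 had a level of 2.68 for skeletal muscle genes, against -1.27 to -1.13 in the other 3 combination libraries. Vehicle replicate 3 was low for Nupr1 (7.98 FPKM, others 28.7 to 32.2), Cox6c (58.9, others 167 to 181), Sesn1 (1.34, others 2.67 to 2.75), Cers2 (23.3, others 57.4 to 67.7) and Cers5 (7.67, others 19 to 20.8), and high for AY036118 (215 FPKM, others 7.79e-06 or less). Vehicle replicate 4 had a level of -0.95 for the small proteoglycans, against -0.33 to -0.29, and of 0.18 for dendritic cell markers, against -0.19 to -0.13. Vehicle replicate 2 was high for Smo (27.3 FPKM, others 14.4 to 15.3) and Lgr5 (1.43, others 0.0684 to 0.121). Vehicle replicate 1 was high for Ddit4 (75.3 FPKM, others 57.8 to 59.8) and Mfap5 (3.43, others 1.33 to 1.48).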

How the results depend on the processing

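Counts of called genes depended on nearly every choice, here given as all, higher and lower against 1703, 1559 and 144. Quantile normalization gave 2634, 1326 and 1308 (50.3% higher, against 91.5%), with a median change of -0.0261, and median-of-ratios scaling 2600, 1471 and 1129 (56.6% higher). No filter on low values gave 8, 8 and 0 (7036 of 38045 genes at an unadjusted p under 0.05). The 8 libraries alone gave 25, 24 and 1. There the spread came from these 8 libraries, while the reported adjusted p-values use a spread shared by all 16 and do not measure that of the 8. Removing the GC trend gave 672, 641 and 31, removing the GC and length trends 333, 318 and 15, aligning library medians as well 27, 15 and 12, and the GC slope as a covariate 0, 0 and 0 in limma (404 genes at an unadjusted p under 0.05). Leaving out 1 library at a time gave 3 to 4947 in all, 3 to 4479 higher and 0 to 679 lower. Median-of-ratios scaling without vehicle replicate 3 gave 3, 3 and 0 with a median change of -0.000192. The cause of these differences was not tested. A pseudocount of 0.1 (1780), a filter on the mean (1591) and limma without intensity trend and robust variance (1420) stayed within 1.5 times the reported count.

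With the replicate number as a block 2321 genes were called, 2080 higher and 241 lower, and with the GC trend removed too 1052, 950 and 102. Both block fits used the 8 libraries alone, where 25 genes were called with neither the block nor the trend removed. The labels do not say whether libraries of the same number share more than that number. The correlations of same-numbered deviations were 0.343, -0.064, 0.072 and 0.065 for numbers 1 to 4, and 0.343 was the highest of all pairs. Combination replicates 2, 3 and 4 correlated best with another number. So few correlations cannot settle whether the numbers mark pairs.

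Of the 144 called genes named, 143 kept their call and direction without combination replicate 1, 127 after quantile normalization, 134 after median-of-ratios scaling and 135 with the replicate block. With the GC and length trends removed 57 of 142 did and 1 turned round (Notch4, 0.0571), and without vehicle replicate 3 only 3 of 144 did. The following genes, all but Notch4 not called, changed sign. Cers2 was at -0.34 (quantile), -0.33 (median-of-ratios), -0.43 (that without vehicle replicate 3) and -0.21 (trends removed, medians aligned), and at -0.33 to 0.17 with 1 library left out. Cers3 was at -0.11, -0.0444, -0.19 and -0.36 in the same settings, at -0.0811 with the GC trend removed, also with the block, at -0.0662 with both trends removed, and at -0.13 to 0.36 with 1 library left out. Cers6 was at -0.19, -0.13, -0.0911 and -0.30 in the same 4 settings, at -0.15 with the GC trend removed, also with the block, at -0.000485 with both trends removed, and at -0.0141 to 0.30 with 1 library left out. Cers5 was at -0.0396 (median-of-ratios without vehicle replicate 3) and -0.0219 (trends removed, medians aligned). Smo was at -0.29 (quantile), -0.32 (median-of-ratios), -0.0767 (GC slope) and -0.13 (median-of-ratios without vehicle replicate 3), and at -0.11 to 0.22 with 1 library left out. Csf1r was at 0.0218 with the GC trend removed, also with the block, at 0.19 with both trends removed and at 0.0521 with the GC slope. Col1a1 was at 0.11 with the GC trend removed, also with the block, at 0.39 with both trends removed and at 0.0901 with medians aligned too. Ldha was at 0.0899 with the GC slope, CT010467.1 at 0.25 and Gm42418 at 0.12 with the GC slope, and Epcam at -0.0234 with median-of-ratios scaling without vehicle replicate 3. With 1 library left out, the difference in mean FPKM was -0.00524 to 0.0681 for Foxp3 and -0.00238 to 0.000654 for Hhip.

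Depth per library is not known from FPKM, and no counting interval is given.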

Other observations

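Calls in lists that the report does not describe are set beside the 11.3% of all genes called. Of 28 lysosomal genes 3 rose and 0 fell (10.7%; median 0.21, -0.13 after median-of-ratios scaling), the proteases Ctss and Ctsk and the membrane protein Lamp2. Ctsk, a cathepsin of osteoclasts and fibroblasts that cleaves collagen, was at 3.74, 10.3, 8.53 and 11.4 FPKM in combination and 2.54, 2.12, 1.42 and 2.61 FPKM in vehicle tumours (1.51, SE 0.30, adjusted p = 0.0342 by limma). Lamp2 was at 55.8, 179, 100 and 168 FPKM in combination and 38.1, 40.5, 15.5 and 75.5 FPKM in vehicle tumours (1.60, SE 0.40, adjusted p = 0.0357). Of 19 autophagy genes 2 rose, Atg3 (1.22) and Atg5 (1.05; 10.5%), with a list median of 0.24 that was -0.10 after median-of-ratios scaling. Endoplasmic reticulum stress (23 tested, median 0.24, -0.08 after that scaling), cholesterol synthesis (21 tested, median 0.02, -0.29 after that scaling), milk protein (9 tested, median 0.25, -0.09 after that scaling), erythrocyte (5 tested) and mast cell genes (1 tested) had 0 calls at an adjusted p under 0.05. Of 18 genes of the TGF-beta list 1 rose, the receptor Tgfbr1 (1.05), and 2 fell, Ltbp3 and Ltbp2 (-0.95; 16.7% called), with a median of -0.08 that was 0.24 with both trends removed. Of 9 basal markers 2 were called (22.2%): 1 rose, the stem cell marker Lgr5 (0.92, SE 0.29, adjusted p = 0.0467), and 1 fell, the factor Sox10, at 41.2, 21.1, 20.3 and 16.5 FPKM in combination and 53, 71.7, 38.8 and 44 FPKM in vehicle tumours (-1.09, SE 0.29, adjusted p = 0.0357). Of 9 listed noncoding RNAs 1 rose, Gas5, which hosts small nucleolar RNAs (1.63, SE 0.43, adjusted p = 0.0357).

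Among the largest rises outside these lists were Rgs2, which shortens G protein signals, and Rab27a, a GTPase of secretory granules. Rgs2 was at 3.74, 29.2, 65.2 and 99.8 FPKM in combination and 4.96, 5.64, 2.59 and 4.97 FPKM in vehicle tumours (2.53, SE 0.75, adjusted p = 0.0449 by limma). Rab27a was at 2.5, 25.8, 19.8 and 12.4 FPKM in combination and 2.28, 2.09, 0.546 and 2.65 FPKM in vehicle tumours (2.21, SE 0.65, adjusted p = 0.045). For both genes combination replicate 1 was the lowest library of its group. Among the largest falls, L1cam, an adhesion molecule of neurons and some tumours, was at 2.26, 0.297, 0.472 and 1.09 FPKM in combination and 2.28, 3.6, 1.58 and 6.29 FPKM in vehicle tumours (-1.11, SE 0.34, adjusted p = 0.0433). Slco2a1, a prostaglandin transporter, was at 12.1, 2.75, 3.56 and 2.92 FPKM in combination and 16.2, 20.6, 10.8 and 8.91 FPKM in vehicle tumours (-1.41, SE 0.37, adjusted p = 0.0357). Espn, which bundles actin in microvilli, was at 4.52, 1.86, 0.927 and 0.451 FPKM in combination and 8.79, 5.62, 5.36 and 4.46 FPKM in vehicle tumours (-1.42, SE 0.35, adjusted p = 0.0342). Tceal9 (2.40), Slco1a5 (2.22) and Calml3 (2.19) were also among the 25 largest rises. Atn1 (-1.41), Zmiz1, Iqsec1, Ptprf, Rusc2, Bcl9l, Aplp1 and Rgl3 (-1.11) were also among the 25 largest falls, and none of these 8 passed with both trends removed. Cd302 (1.53), Cd37 (0.56), Fndc5, Cpxm1, Gm13577, Gm6402 (1.55) and Dock2 rose and also passed with both trends removed. The heat shock element was in the promoter windows of 3 of the 17 heat shock genes that had one (17.6%), against 0.529% of all windows.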
